A study of Mus musculus with 2 samples.

Results

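Early erythroid progenitors are the cells that have entered the red cell lineage but have not yet filled with hemoglobin, and 88 such cells were found among the 22810 cell barcodes kept from 2 droplet libraries of healing skull bone. They were chosen by 3 genes, with at least 3 UMIs (molecular tags, so that each UMI stands for 1 RNA molecule) of Car1, at least 1 of Klf1 and at most 2 of Slc4a1. Car1 encodes carbonic anhydrase I, Klf1 an erythroid transcription factor, and Slc4a1 the band 3 anion exchanger of the mature red cell membrane. Of the 88 barcodes, 16 were in the CGG library and 72 in the CGG-Cit library. The cells came from 2 mm defects cut in the parietal bones of wild type C57BL/6 mice and filled with a CGG or a CGG-Cit hydrogel, and the trimmed tissue was digested in 0.3% collagenase 2 weeks later. The labels do not say what the abbreviations stand for or how many mice a library pools, and each hydrogel has 1 library. Differences between the hydrogels and differences between the 2 libraries therefore cannot be told apart. No test was possible, and each 95% interval below covers counting error only.

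Red cells arise in the marrow from multipotent progenitors that pass through a stage shared with megakaryocytes, mast cells and basophils. As a progenitor commits, Gata2, which serves the early stages, gives way to Gata1, and the Gata1 protein together with Klf1 switches on the genes of heme, membrane and surface proteins. The cells divide rapidly under stem cell factor, sensed by Kit, and then under erythropoietin, sensed by Epor, before they stop dividing, fill with hemoglobin and expel the nucleus.

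The binding motif of the GATA factors and the CACCC motif bound by Klf1 were looked for as plain letters in the 250 bases upstream of each start site, as AGATAA and CACACCC on either strand. The 5 windows of 120 bases below are shown because their genes are the regulators and stage markers that the results turn on; they run 5′ to 3′ on the gene's strand, from RefSeq on GRCm38.p6, and capitals mark the matched letters. The windows are Klf1 at chr8:84901862-84901981 (+), Gata1 at chrX:7967911-7968030 (-), Epor, the erythropoietin receptor, at chr9:21963577-21963696 (-), Alas2, the erythroid enzyme that begins heme synthesis, at chrX:150547297-150547416 (+), and Rhd, a blood group protein, at chr4:134864416-134864535 (+).
Klf1: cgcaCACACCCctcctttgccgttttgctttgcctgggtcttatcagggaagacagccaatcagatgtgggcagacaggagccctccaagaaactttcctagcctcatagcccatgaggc
Gata1: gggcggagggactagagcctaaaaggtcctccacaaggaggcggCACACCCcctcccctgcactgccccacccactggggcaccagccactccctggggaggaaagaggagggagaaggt
Epor: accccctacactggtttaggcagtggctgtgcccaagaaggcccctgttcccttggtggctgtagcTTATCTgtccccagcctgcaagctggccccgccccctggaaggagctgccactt
Alas2: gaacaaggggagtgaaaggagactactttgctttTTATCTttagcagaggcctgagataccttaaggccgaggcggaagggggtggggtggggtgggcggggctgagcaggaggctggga
Rhd: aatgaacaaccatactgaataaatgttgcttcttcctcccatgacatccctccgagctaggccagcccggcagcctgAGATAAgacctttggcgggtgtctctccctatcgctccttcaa
CACACCC was found in the promoters of Klf1 and Gata1, and the GATA letters, here as TTATCT or AGATAA, in those of Epor, Alas2 and Rhd. Of all 32851 promoters in the RefSeq table, 9.99% held the GATA letters, 6.93% held CACACCC and 0.536% held both. Among 22 promoters of 14 blood group and red cell surface genes, 7 held CACACCC (31.8%, from 5 genes) and 4 held the GATA letters (18.2%). Among 31 promoters of 19 erythroid transcription factors, 5 held CACACCC (16.1%) and 4 the GATA letters (12.9%). Among 16 promoters of 13 heme synthesis genes, 1 held CACACCC and 1 the GATA letters (6.25% each). Neither AGATAA nor CACACCC was found on either strand in the windows of Gata2, Kit, Apoe, Tfrc, Myb, Hemgn, Ermap or Uros. Only these spellings were looked for, so other forms of the motifs were not counted. A match describes these letters only, not a bound site.

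The 88 barcodes were deep and held little globin RNA. UMIs per barcode ran from 10798 through a median of 41823.5 to 64190 in CGG, and from 1344 through 45870 to 137074 in CGG-Cit. The ranges overlapped and the medians were close. Globins made up 0.428% of their UMIs in CGG and 0.312% in CGG-Cit. In the later erythroblasts of the same libraries, taken as barcodes with at least 3 Slc4a1 UMIs, globins made up 56.1% and 60.0%. Ribosomal protein genes gave 34.8% and 33.3% of the UMIs of the early barcodes against 7.39% and 7.45% in the later ones. With each barcode thinned to 5000 UMIs, the early ones held medians of 1838.5 (16 barcodes) and 1859.5 genes (70 barcodes, 2 shallower ones left out), against 763.5 and 620 genes in later erythroblasts.

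As to the series as a whole, the CGG library held 92517884 UMIs and the CGG-Cit library 106173570, and the kept barcodes had medians of 3921 and 6232 UMIs. The libraries shared 34 barcode sequences, and none of them belonged to the 88. The later erythroblasts numbered 635 and 984. Mpo-rich myeloid progenitors (at least 10 UMIs of Mpo, no Klf1 and no Slc4a1) numbered 184 and 523, and B lineage barcodes (at least 3 UMIs of Cd79a), used as a background of free RNA, numbered 1081 and 4232.

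In CGG more barcodes lay just outside the cutoffs than met the rule. Just inside the Car1 cutoff, at 3 to 5 UMIs, lay 1 CGG and 2 CGG-Cit barcodes, and just outside, at 1 or 2 UMIs, lay 15 and 6, with median depths of 4719 and 3966.5 UMIs. With Car1 past its cutoff but no Klf1 UMI there were 9 and 12 barcodes, and a single Klf1 UMI carried 1 and 9 of the members. Slc4a1 was at 0 UMIs in 14 and 62 members and at 1 or 2 UMIs in 2 and 10. Just outside, at 3 to 5 Slc4a1 UMIs, lay 5 and 4 barcodes, whose Hbb-bs, the major adult beta globin, had medians of 8111 and 10673 CPM (counts per 1000000 UMIs of the barcode or group).

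Among kept barcodes, 0.130% were early erythroid in CGG (16 of 12279, exact Clopper-Pearson interval 0.0745 to 0.212%) and 0.684% in CGG-Cit (72 of 10531, 0.535 to 0.860%). The CGG-Cit share was 5.25 times as large (95% interval 3.02 to 9.67), a difference of 0.553 percentage points (Newcombe interval 0.391 to 0.737). The rule counts raw UMIs and so depends on depth. Among barcodes with at least 10000 UMIs the shares were 0.507% (16 of 3155) and 2.00% (68 of 3401), 3.94 times as large. Within the erythroid barcodes, early and later together, the early ones made up 2.46% in CGG and 6.82% in CGG-Cit, 2.77 times as large (1.6 to 5.11). With barcodes thinned to 5000 UMIs before the rule was applied, and shallower ones left out, 18 and 53 barcodes met it and the ratio was 2.61. Thinning lowers Slc4a1 counts too, so barcodes outside the rule at full depth can enter. The later erythroblasts were also more frequent in CGG-Cit, at 9.34% against 5.17% of barcodes, as were the Mpo-rich progenitors, at 4.97% against 1.5%.

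The label was checked against markers that the rule did not use. Gata1, the master regulator of the lineage, had a UMI in 15 of 16 CGG and 66 of 72 CGG-Cit barcodes, at a lowest, median and highest level of 0, 88.2 and 360 CPM in CGG and 0, 102 and 744 CPM in CGG-Cit. Over all their UMIs its summed level was 114 and 108 CPM, against 1.77 and 3.77 CPM in B lineage barcodes. Ermap, an erythroid adhesion protein that carries the Scianna blood group, stood at 296 and 275 CPM against 8.12 and 14.1 CPM in B lineage barcodes. Epor had 59.9 and 69.2 CPM against 2.36 and 3.03 CPM in B lineage barcodes. Thinned to 5000 UMIs, Epor was seen in 12.5% of the early CGG barcodes and 25.7% of the CGG-Cit ones, against 1.71% and 0.610% of B lineage barcodes. Gata1, Ermap and Epor stood above the B lineage level in both libraries. Alas2, another erythroid marker, did not, and its summed levels given below lay under those of B lineage barcodes. Thinned to 5000 UMIs, Tfrc, the transferrin receptor, was seen in 81.25% and 51.4% of early barcodes against 37.4% and 44.7% of B lineage ones. Hemgn, an erythroid nuclear protein, was seen in 56.25% and 38.6% against 5.43% and 3.96%. Markers of megakaryocytes were at or near 0, with 8 of 12 listed genes (among them Pf4 and Itga2b) at 0 UMIs in CGG and 4 of 12 in CGG-Cit, and sums of 18.9 and 23.2 CPM. The mast cell and basophil list summed to 28.4 and 100 CPM, of which Gata2, which is also an early progenitor gene, gave 12.6 and 48.5 CPM; Prss34, Mcpt8 and Cpa3 had no UMI in CGG and 5, 11 and 10 UMIs in CGG-Cit.

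RNA of other cell types was present in some of the 88 barcodes and differed between the libraries. The neutrophil list summed to 601 CPM in CGG and 13462 CPM in CGG-Cit. In CGG-Cit, 7 barcodes with at least 100 UMIs of S100a8, a neutrophil calcium-binding protein, held 12517 of the 13731 S100a8 UMIs (91.2%), and without them the neutrophil sum was 1519 CPM. Likewise 2 CGG-Cit barcodes held 654 of 731 Elane UMIs (89.5%), and the myeloid progenitor list summed to 25.2 CPM in CGG and 740 in CGG-Cit, or 86.6 without the S100a8-rich barcodes. The mesenchymal list went the other way, with 399 CPM in CGG and 8.84 in CGG-Cit, and the median barcode held 4 and 0 UMIs of Col1a1, the main bone collagen, as did the Mpo-rich progenitors. Cd79a at 3 UMIs or more marked 1 CGG and 5 CGG-Cit barcodes. The macrophage list summed to 296 and 338 CPM, but it includes Apoe, described below, which gave much of it. Medians per barcode were 238 and 60.3 CPM for the list and 179 and 40.6 CPM for Apoe alone. C1qa, a macrophage complement gene, was seen in 6 of 16 CGG and 4 of 72 CGG-Cit barcodes. The B lineage list summed to 155 and 102 CPM, the T and NK list to 7.88 and 43.3, and the endothelial list to 56.8 and 66.2. The Scrublet doublet caller marked 7 of 16 CGG and 4 of 72 CGG-Cit barcodes, but in CGG its own threshold marked 1 barcode of the library, so there the highest-scoring 9.82% were marked instead. The part of this RNA in the results below was not tested, except where values without the S100a8-rich barcodes are given.

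Hemoglobin RNA in the early barcodes was far below that of later erythroblasts and closer to that of Mpo-rich progenitors. Hbb-bs had medians of 36.5 and 36 UMIs per barcode, against 15 and 25 UMIs in Mpo-rich progenitors, 7 and 10 in the shallower B lineage barcodes, and 2949 and 4253.5 in later erythroblasts. Per barcode the level ran from 218 through 1044 to 8056 CPM in CGG and from 387 through 820 to 66388 CPM in CGG-Cit. A single CGG-Cit barcode carried 2491 of the 5213 Hbb-bs UMIs (47.8%), and the levels of the others overlapped between the libraries. In CGG the median was 7177 CPM in the 2 barcodes with 1 or 2 Slc4a1 UMIs and 822 CPM in the 14 with none. In CGG-Cit it was 783 CPM in 10 such barcodes and 833 CPM in the 62 with none. Hba-a1, an alpha globin, had medians of 27.5 and 11 UMIs against 4 and 6 in Mpo-rich progenitors. No UMI was found for the embryonic globins Hbb-bh1, Hbb-y and Hba-x in either library. Alas2 gave 9 UMIs in CGG (14.2 CPM) and 7 in CGG-Cit (2.13 CPM), below the 28.8 and 49.2 CPM of the much shallower B lineage barcodes. A UMI of it was seen in 31.2% of the early CGG barcodes against 7.07% of Mpo-rich and 4.63% of B lineage ones, and in 5.56% of the early CGG-Cit barcodes against 6.31% and 5.25%. The later erythroblasts held 768 and 756 CPM.

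The 88 barcodes spread over a wide range of Car2, the gene of carbonic anhydrase II, which the rule did not use. Car2 ran from 740 through 2962 to 4467 CPM in CGG and from 114 through 2381 to 5481 CPM in CGG-Cit. To describe this spread, the barcodes were split at 1782 and 3014 CPM into low, middle and high Car2 ranges of 30, 29 and 29 barcodes, a split chosen after the values were seen. These are ranges and not cell types, since 39 of the 88 lay within 0.25 log2 units of a limit. The libraries filled them differently, with 2, 6 and 8 barcodes in CGG and 28, 23 and 21 in CGG-Cit. Median depths in CGG-Cit were 33894, 50849 and 47876 UMIs, so that depth moved with Car2 too. So did RNA of other cell types: the neutrophil list summed to 25823, 13074 and 1350 CPM in the low, middle and high ranges of CGG-Cit and the myeloid progenitor list to 2115, 110 and 80.7 CPM, and the 7 S100a8-rich barcodes fell 4, 3 and 0 into the ranges.

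**Figure D1:**
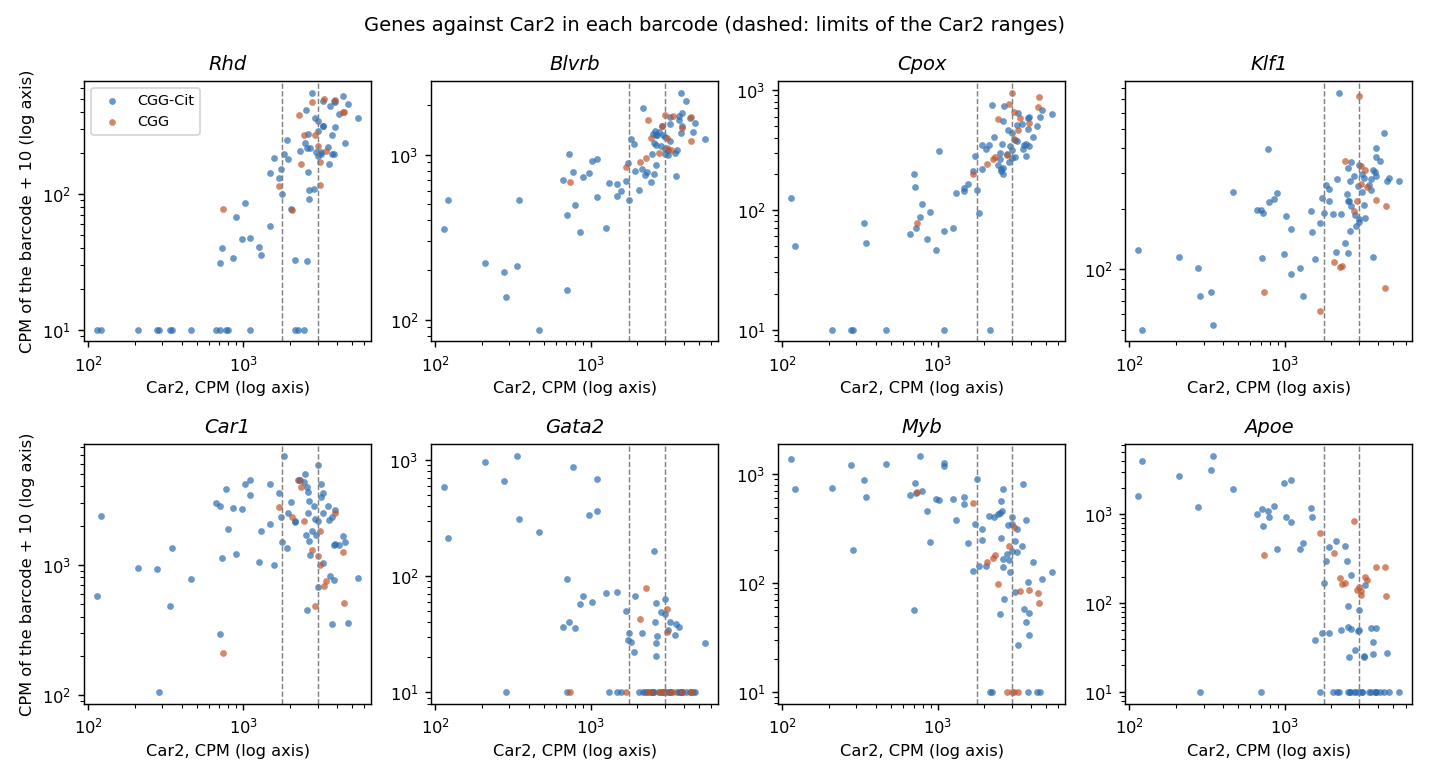
Level of 8 genes (CPM of the barcode + 10, log axis) against Car2 (CPM, log axis) in each of the 88 barcodes, 16 of CGG (orange) and 72 of CGG-Cit (blue), with dashed lines at the 2 limits of the Car2 ranges. Rhd, Blvrb and Cpox are higher where Car2 is higher, Gata2, Myb and Apoe are lower there, and all 11 barcodes with at least 200 CPM of Gata2 lie in the low range.

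Within CGG-Cit the genes of the red cell surface, heme synthesis and DNA replication were higher in the high Car2 range, and the genes of early progenitors were higher in the low one. Across all 7159 genes compared, 5.53% were at least 2-fold higher and 11.1% at least 2-fold lower in the high range, with a median log2 ratio of -0.02. No test is given, because the barcodes come from 1 library and were ordered by their own RNA. Of 16 heme synthesis genes, 12 were at least 2-fold higher and 1 lower, with a median log2 ratio of 1.33. Of 15 surface genes, 8 were at least 2-fold higher and none lower, with a median of 1.31. Of 23 S phase genes, 11 were at least 2-fold higher and none lower, with a median of 0.91. Of 10 stem and early progenitor genes, 7 were at least 2-fold lower and none higher, with a median of -2.22. Erythroid transcription factors were mixed, with 2 higher and 4 lower of 22 and a median of 0.06, and the 18 genes of Myc and ribosome biogenesis had a median of -0.08.

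Of the early progenitor genes, Gata2 stood at 118 CPM in the low, 19.1 in the middle and 12.6 in the high range, 9.31-fold lower from end to end. Of the 123 Gata2 UMIs in the low range, 99 lay in 11 of its 28 barcodes, and the other 17 had 28.8 CPM. Kit stood at 144, 82.2 and 65.2 CPM. Myb, a transcription factor of dividing progenitors, had the same order, at 569, 266 and 185 CPM. Muc13, a membrane mucin, had 61.2 CPM in the low range and 1.95 in the high. Apoe, the lipid carrier apolipoprotein E, had 871, 103 and 22.4 CPM, 39.0-fold lower in the high range. Apoe UMIs per CGG-Cit barcode had a mean of 14.7 in the early barcodes, 2.23 in the Mpo-rich and 0.428 in the B lineage ones, and in CGG the means were 9.50, 12.7 and 11.9. The part of free RNA in these levels was not tested.

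Most surface and heme genes were higher in the high than in the low range, 13 of 15 and 14 of 16. Rhd stood at 59.3, 202 and 305 CPM, and Rhag, its partner protein, at 29.6, 78.8 and 135 CPM. Hemgn, a nuclear protein of erythroid cells, had 48.8, 104 and 273 CPM. Among the heme enzymes, Uros had 9.57, 32.4 and 74.9 CPM and Cpox 115, 304 and 446 CPM. Alas2 stayed at 1.91, 1.66 and 2.92 CPM across them, while Alas1, the housekeeping form of the same enzyme, had 42.1, 20.7 and 1.95 CPM. The genes singled out by the rule for named genes also included Sh2d4a (3.83, 39.8 and 89.5 CPM), Bex4 (10.5, 83.8 and 135.2 CPM), Cldn13, a claudin of erythroid cells (47.8, 144 and 289 CPM), and Ctse, the protease cathepsin E (35.4, 112 and 223 CPM).

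Genes of replication and of the erythropoietin and iron receptors named here had the same order as Rhd and Cpox. Ccne1, a cyclin of S phase entry, stood at 34.4, 127 and 179 CPM over the low, middle and high ranges. Cdt1, which licenses replication origins, had 35.4, 71.4 and 122 CPM. Npm1, a nucleolar protein of ribosome assembly, was near level at 3663, 4469 and 3913 CPM. Epor had 39.2, 72.2 and 96.3 CPM, and Tfrc, the transferrin receptor that brings in iron, 114, 199 and 268 CPM. Klf1 itself, which the rule required, had 141, 222 and 264 CPM. Over the 72 CGG-Cit barcodes, Spearman rank correlations with Car2 were 0.83 for Rhd and Cpox, 0.61 for Klf1, 0.54 for Epor and 0.00 for Car1. They were -0.58 for Gata2, -0.48 for Kit, -0.67 for Myb and -0.70 for Apoe. The points share 1 library, and the correlation of depth itself with Car2 was 0.43. In the 65 barcodes left without the S100a8-rich ones, Gata2 (-0.68), Kit (-0.58), Myb (-0.76), Apoe (-0.84) and Rhd (0.85) had larger values. Those of Cpox (0.82), Klf1 (0.60) and Epor (0.53) were slightly smaller, and Car1 had -0.09.

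Barcodes rich in Gata2 lay within the low end of this spread, among others with less Gata2. At 200 CPM of Gata2 or more, a value chosen after the levels were seen, there were 11 barcodes in CGG-Cit and none in CGG, and all 11 lay in the low Car2 range, beside 17 with less. Their depth had a median of 12967 UMIs against 47881 in the other 61. All 11 held Kit, Apoe and Myb UMIs, with medians of 209 CPM for Kit, 2222 for Apoe and 1186 for Myb, against 80.3, 29.2 and 226 CPM in the other 61. Rhd was seen in 2 of the 11, against 54 of the other 61. Cpa3, a mast cell protease, was seen in 5 of the 11 and in none of the 61, whereas Pf4, the platelet factor, was in none of the 11 and in 8 of the 61. Mpo was seen in 3 of the 11 and 27 of the 61, and Mki67, a gene of dividing cells, in 5 of the 11 and 58 of the 61. The lower depth bears on these counts of barcodes with a UMI.

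**Figure D2:**
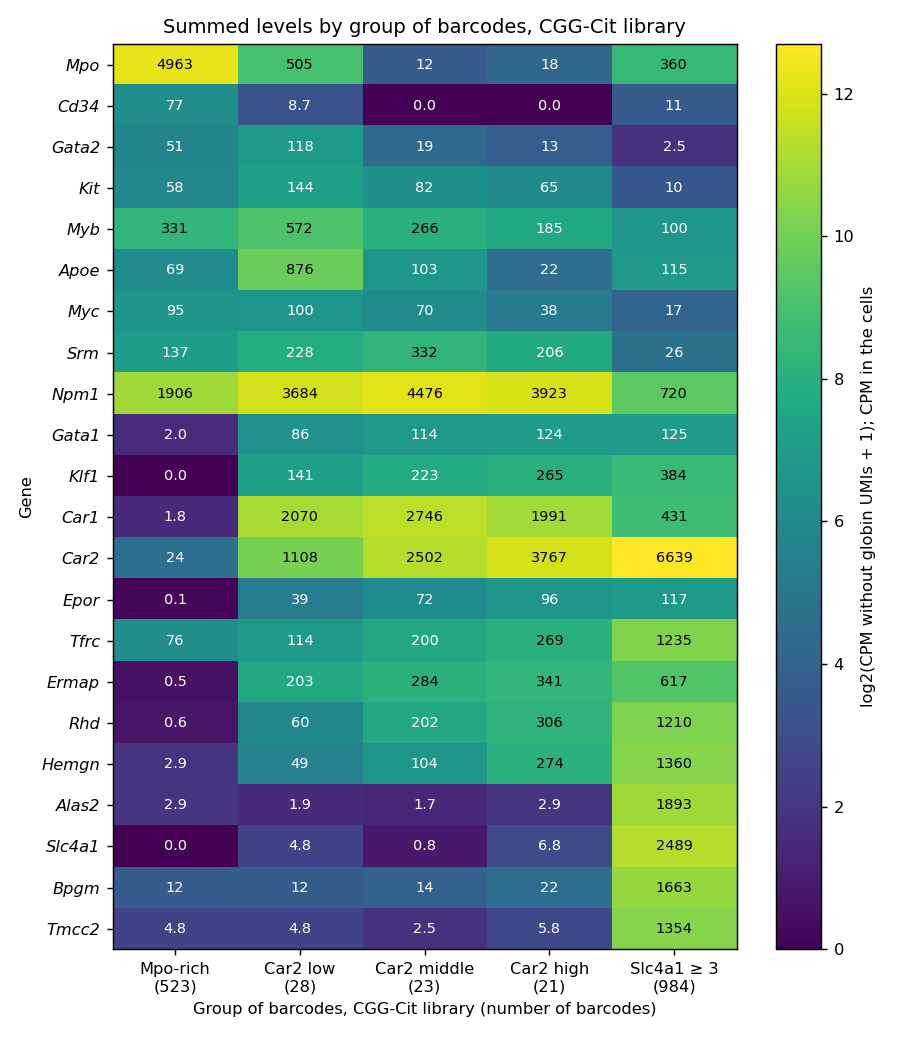
Summed level of 22 genes (CPM without globin UMIs, printed in each cell, with color for log2 of CPM + 1) in 5 groups of CGG-Cit barcodes, from 523 Mpo-rich progenitors through the low (28), middle (23) and high (21) Car2 ranges to 984 later erythroblasts. Gata2 has 118 CPM in the low range and 2.5 CPM in the later erythroblasts, while Alas2 stays under 3 CPM in all 3 ranges and reaches 1893 CPM in the later ones.

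The next comparison set the early barcodes against the later erythroblasts of the same library. The rule split these groups by Slc4a1, so the contrast is a description of where the stages differ. Globin RNA makes up most of the UMIs of the later cells, which lowers every other gene on the CPM scale. The median log2 ratio of early over later, over all genes, was 1.32 in CGG and 1.53 in CGG-Cit on CPM, and 0.14 and 0.21 after globin UMIs were left out of the totals. On CPM, 57.7% of 6364 genes were at least 2-fold higher and 4.92% at least 2-fold lower in both libraries. Without globin UMIs these were 15.5% and 15.3% of 6360 genes, and values from here on use that scale unless CPM is named.

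Growth genes were higher in the early barcodes. Of 18 Myc and ribosome biogenesis genes, 15 were at least 2-fold higher in both libraries and 1 lower, with median log2 ratios of 2.44 in CGG and 2.04 in CGG-Cit. Srm, which makes the polyamine spermidine, was 13.5-fold and 9.98-fold higher. Npm1 was 7.80-fold and 5.63-fold higher, and on CPM stood at 3800 against 215 in CGG and 4038 against 288 in CGG-Cit. Lyar, a nucleolar protein, was 10.1-fold and 6.58-fold higher. Of 21 nucleotide and folate genes, 11 were higher and 3 lower, with medians of 1.62 and 1.01, among them Mthfd1 of the folate cycle at 7.96-fold and 6.39-fold higher. Of 20 genes of the tricarboxylic acid cycle 8 were higher and none lower, with medians of 1.02 and 0.88. The mitochondrial proteins Hspd1, a chaperone, and C1qbp were 8.50-fold and 6.62-fold, and 7.26-fold and 5.90-fold, higher. Kit differed in the same direction, at 44.1 against 0.819 CPM in CGG and 96.4 against 4.10 CPM in CGG-Cit.

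Genes of the finished red cell were lower. Of 17 surface genes 15 were at least 2-fold lower and none higher, with median log2 ratios of -1.98 and -2.67. Heme synthesis had 12 of 17 lower and none higher, with medians of -1.66 and -2.27. The membrane skeleton had 11 of 14 lower, with -2.59 and -3.27, and the list of late maturation and enucleation 14 of 15, with -2.82 and -3.28. Tmcc2 was 215-fold and 316-fold lower, Alas2 123-fold and 884-fold, and Bpgm, which makes the oxygen-releasing metabolite of red cells, 80.4-fold and 103-fold lower. On CPM, Xpo7, a nuclear export protein, stood at 3.15 against 351 CPM in CGG and 10.4 against 358 CPM in CGG-Cit. Of 17 interferon response genes, 14 were lower and none higher, with medians of -3.46 and -2.02, and Rsad2, an antiviral enzyme, stood at 4.73 against 329 CPM and 12.2 against 402 CPM. Lists of other cell types were lower on this scale too. Among them were 8 of 8 neutrophil genes (-4.98 and -2.12) and 7 of 8 myeloid progenitor genes (-3.38 and -1.67). So were 5 of 5 mesenchymal genes (-5.10 and -5.33) and 4 of 5 macrophage genes, whereas the 1 endothelial gene tested was higher. The part of free RNA in the interferon values was not tested. The S phase list differed little on this scale, with none of 23 higher and 1 lower (medians 0.22 and -0.30), whereas on CPM 12 of 23 were higher. Among 22 G2 and M phase genes 11 were lower and none higher, with medians of -1.06 and -1.25. Of 10 cell cycle inhibitors 7 were lower.

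**Figure D3:**
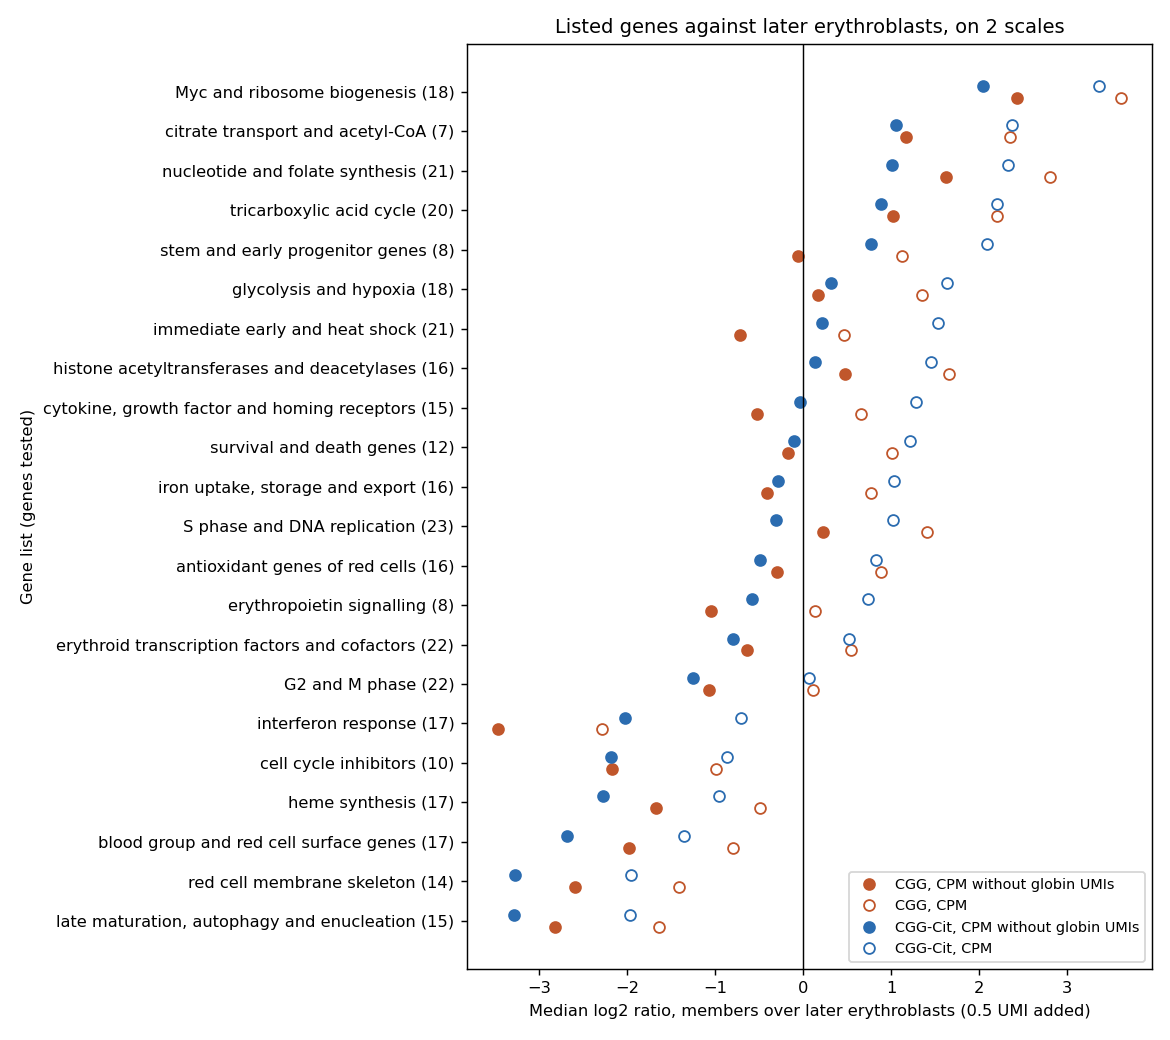
Median log2 ratio of each gene list in the early barcodes over the later erythroblasts (0.5 UMI added), for CGG (orange) and CGG-Cit (blue), on CPM (open) and on CPM without globin UMIs (filled), with the number of genes tested beside each list. Myc and ribosome biogenesis lies at 2.44 and 2.04 on the scale without globins, and late maturation at -2.82 and -3.28, while on CPM every list shown lies farther to the right.

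Mpo-rich myeloid progenitors were closer in depth and globin content than the later erythroblasts, with median depths of 24487.5 UMIs in CGG and 32200 in CGG-Cit and globin shares of 0.176% and 0.240%. Of 7418 genes, 6.93% were at least 2-fold higher in the early erythroid barcodes in both libraries and 13.3% at least 2-fold lower, and the median log2 ratio over all genes was 0.05 in CGG and 0.13 in CGG-Cit. Here 12 of 15 surface genes were higher, with medians of 4.58 and 3.99, and 12 of 16 heme synthesis genes, with 2.53 and 2.21. None of the 18 Myc and ribosome biogenesis genes was past 2-fold in either direction. Of 22 glycolysis and hypoxia genes, 4 were higher and 11 lower, with medians of -1.04 and -1.16. Car2 stood at 2833 against 31.6 CPM in CGG and 2448 against 23.5 CPM in CGG-Cit. Ermap had 296 against 1.55 CPM and 275 against 0.471 CPM. Slc25a21, a mitochondrial carrier, had 86.7 against 0 CPM and 109.5 against 0.0589 CPM, and Cldn13 had 214 against 1.33 and 159 against 0.530 CPM. Mpo-rich progenitors held the granule genes, with Prtn3 at 5809 and 7844 CPM against 3.15 and 177 CPM, and Elane at 5985 and 8584 CPM against 3.15 and 223 CPM in the early erythroid barcodes. Of the Elane UMIs in CGG-Cit, 89.5% lay in the 2 barcodes described above.

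Between the libraries, the CGG-Cit early barcodes held more RNA of early progenitor genes and less of red cell surface, heme and replication genes than the CGG ones. Of 6898 genes, 4.1% were at least 2-fold higher and 2.64% at least 2-fold lower in CGG-Cit. The interval of the ratio lay above 1 for 9.25% and below 1 for 9.35%, and the median log2 ratio over all genes was 0.01. The CGG values rest on 16 barcodes, of which 8 lay in the high Car2 range. The ratios are therefore also given within that range, from 8 CGG and 21 CGG-Cit barcodes.

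Early progenitor genes were higher in CGG-Cit for 8 of the 9 tested, with a median log2 ratio of 0.67, or 0.42 within the high Car2 range, and 4 of the 9 were past 2-fold. Kit ran from 0 through 8.21 to 156 CPM in the CGG barcodes and from 0 through 88.6 to 386 CPM in the CGG-Cit ones. The ranges overlapped, and 8 of 16 CGG barcodes had no Kit UMI against 12 of 72. Summed, Kit stood at 44.1 and 96.4 CPM, 2.18-fold higher in CGG-Cit (1.48 to 3.34), with a log2 ratio of 1.33 within the high range. In CGG that last ratio rests on 6 Kit UMIs in 1 barcode and 1 in another. Thinned to 5000 UMIs, it was seen in 18.8% of CGG and 35.7% of CGG-Cit barcodes, against 4.57% and 1.89% of B lineage barcodes. Gata2 ran from 0 through 0 to 69.4 CPM in CGG and from 0 through 19.3 to 1078 CPM in CGG-Cit, and every CGG barcode lay within the lower part of the CGG-Cit range. Its sums were 12.6 and 48.5 CPM, 3.84-fold higher (1.90 to 9.06). Of the 159 UMIs in CGG-Cit, 99 lay in the 11 Gata2-rich barcodes, and the other 61 had 19.6 CPM. The log2 ratio of Gata2 within the high range was 0.11, but in CGG it rests on 2 UMIs in 1 barcode and 1 in another. Sox4, a transcription factor of progenitors, was 7.70-fold higher (3.24 to 24.0), with 7.88 and 60.7 CPM, and its level in CGG B lineage barcodes was 344 CPM. Only 2 CGG barcodes held Sox4, with at most 3 UMIs each. In CGG-Cit its median was 475 CPM in the 11 Gata2-rich barcodes and 14.0 CPM in the other 61. Cd34 had no UMI in CGG and 2.75 CPM in CGG-Cit. All 9 of its UMIs lay in 1 CGG-Cit barcode, which also held 4193 UMIs of S100a8 and 434 of Mpo.

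Myc, the growth regulator, led the genes higher in CGG-Cit by the naming rule. It ran from 0 through 7.79 to 63.5 CPM in CGG and from 0 through 59.4 to 463 CPM in CGG-Cit, with overlap at the low end. Summed it stood at 22.1 and 69.2 CPM, 3.14-fold higher (1.83 to 5.83), from 14 UMIs in CGG. Within the high Car2 range its log2 ratio was 0.22. None of the other 17 genes of the Myc and ribosome list was past 2-fold, and the list's median log2 ratio was 0.10. Vamp5, a vesicle fusion protein, had 306 and 542 CPM (1.77-fold), Ier2, an immediate early gene, 132 and 264 CPM (1.99-fold), and Cdk6, a kinase of cell cycle entry, 197 and 303 CPM (1.54-fold). Gm15915, a transcript of unknown function, had 71.0 and 148.5 CPM (2.09-fold), and a single CGG barcode held 19 of its 45 UMIs there (42.2%). Without the barcode with the highest count in each library, the ratio was 3.59 for Myc and 2.81 for Kit.

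Several erythroid regulators were higher too, while the list as a whole was balanced. Of 22 erythroid transcription factors 10 were higher and 12 lower in CGG-Cit, with a median log2 ratio of -0.05. Myb ran from 0 through 82.3 to 673 CPM in CGG and from 0 through 305 to 1473 CPM in CGG-Cit, and its sums of 169 and 337 CPM gave 2.00-fold (1.64 to 2.46). Bcl11a, a repressor of fetal globin genes, had 114 and 207 CPM (1.83-fold, 1.43 to 2.36), and Gfi1b, a repressor needed for red cells and platelets, 48.9 and 78.1 CPM (1.6-fold, 1.10 to 2.40). Gata1 and Tal1, core activators, lay at ratios of 0.948 and 1.0. Lower past 2-fold were Sox6, which acts with Bcl11a, at 48.9 and 10.7 CPM, and E2f2, a cell cycle factor, at 37.8 and 11.6 CPM. E2f2 had 125 CPM in CGG B lineage barcodes, above its level in the early erythroid ones. Among receptors, 8 of 14 were higher and 6 lower, with Ifngr1, the interferon gamma receptor, at 67.8 and 138 CPM (2.03-fold, 1.49 to 2.85). Epor differed little, with 59.9 and 69.2 CPM (1.16-fold, 0.817 to 1.68). Of the genes downstream of Epor, the inhibitory phosphatase Ptpn6 stood at 22.1 and 63.1 CPM (2.86-fold, 1.67 to 5.32), below its 152 CPM in CGG B lineage barcodes.

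**Figure D4:**
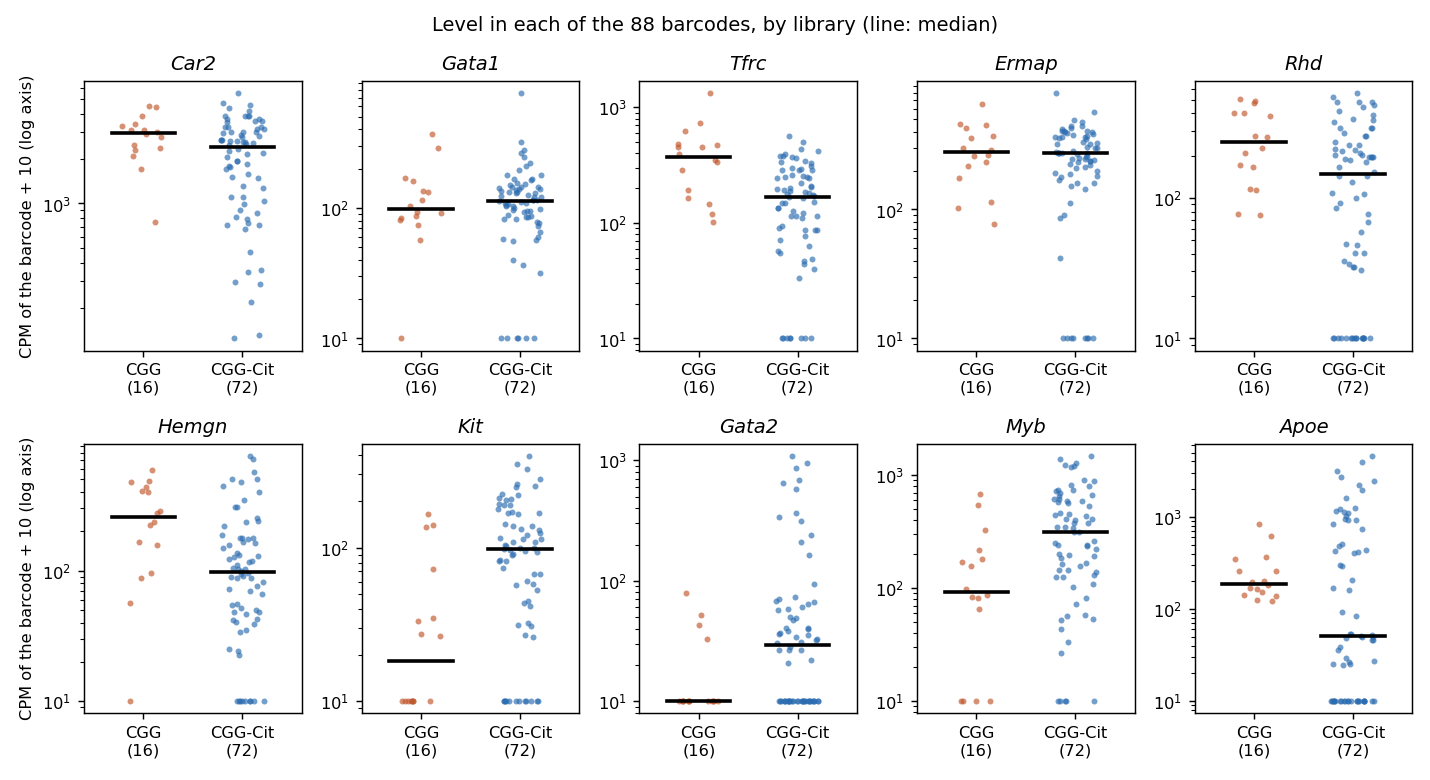
Level of 10 genes in each of the 88 barcodes (CPM of the barcode + 10, log axis), 16 of CGG (orange) and 72 of CGG-Cit (blue), with a black line at the median. Medians of Tfrc and Rhd are higher in CGG, those of Kit and Myb in CGG-Cit, and the points of the libraries overlap for every gene shown.

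Surface genes were lower in CGG-Cit for 13 of 15, with a median log2 ratio of -0.68, or -0.40 within the high Car2 range. Rhd ran from 65.7 through 239 to 492 CPM in the CGG barcodes and from 0 through 139 to 545 CPM in the CGG-Cit ones. The ranges overlapped, and every CGG barcode held Rhd against 56 of 72 in CGG-Cit. Summed it stood at 241 and 189 CPM (ratio 0.783, 0.655 to 0.940), with a log2 ratio of 0.02 within the high range. Cd24a, a surface glycoprotein, had 776 and 425 CPM (ratio 0.548, 0.494 to 0.608), below the 1022 and 1174 CPM of B lineage barcodes. Rhag had 129 and 80.8 CPM. Ermap, at 296 and 275 CPM, had an interval that spanned 1 (0.793 to 1.09).

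Heme synthesis was lower in 13 of 16 genes, none past 2-fold, with a median log2 ratio of -0.42 and -0.37 within the high range. Fech, which inserts the iron into heme, had 109 and 55.8 CPM (ratio 0.513, 0.387 to 0.687), and Cpox 457 and 288 CPM (0.630, 0.552 to 0.722). Iron genes were lower in 13 of 15, with a median of -0.16. Tfrc stood out among them, ranging from 92.6 through 362 to 1312 CPM in CGG and from 0 through 158 to 560 CPM in CGG-Cit. Every CGG barcode held it, whereas 8 of 72 in CGG-Cit did not. Its sums of 388 and 194 CPM were 2.00-fold lower in CGG-Cit (1.72 to 2.32), with a log2 ratio of -1.04 within the high range, and 1.78-fold lower without the barcode of the highest count in each library. Fth1 and Ftl1, the ferritin chains that store iron, had ratios of 0.783 and 0.650. In the membrane skeleton 8 of 11 were lower, with a median of -0.50, and Sptb, the beta chain of spectrin, stood at 59.9 and 29.3 CPM. Epb42, protein 4.2, had 34.7 and 9.45 CPM.

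The S phase list was lower in CGG-Cit for 21 of 23 genes, none past 2-fold, with a median log2 ratio of -0.40 and -0.35 within the high range. Pcna, the replication clamp, had 405 and 229 CPM (ratio 0.565, 0.490 to 0.654). Uhrf1, which maintains DNA methylation, had 186 and 95.5 CPM (0.513, 0.414 to 0.640), and Mcm7 of the replicative helicase 281 and 185 CPM (0.661, 0.558 to 0.785). Of 22 G2 and M phase genes 15 were higher and 7 lower, with a median of 0.19. That median was negative without barcodes that held markers of other lineages (-0.32), within the high Car2 range (-0.20) and after thinning (-0.23). The first of these left out CGG barcodes mostly for their Col1a1 UMIs, a gene that every CGG barcode held. Of 21 nucleotide genes 6 were higher and 15 lower, with a median of -0.19. Crip2, which led the lower genes by the naming rule, stood at 101 and 33.6 CPM, 3.01-fold lower. Lmna, the lamin of the nuclear envelope, had 205 and 96.4 CPM, Ctse 251 and 122 CPM, and Tmem56 125 and 52.8 CPM. Within the high range Lmna had a log2 ratio of -0.35.

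**Figure D5:**
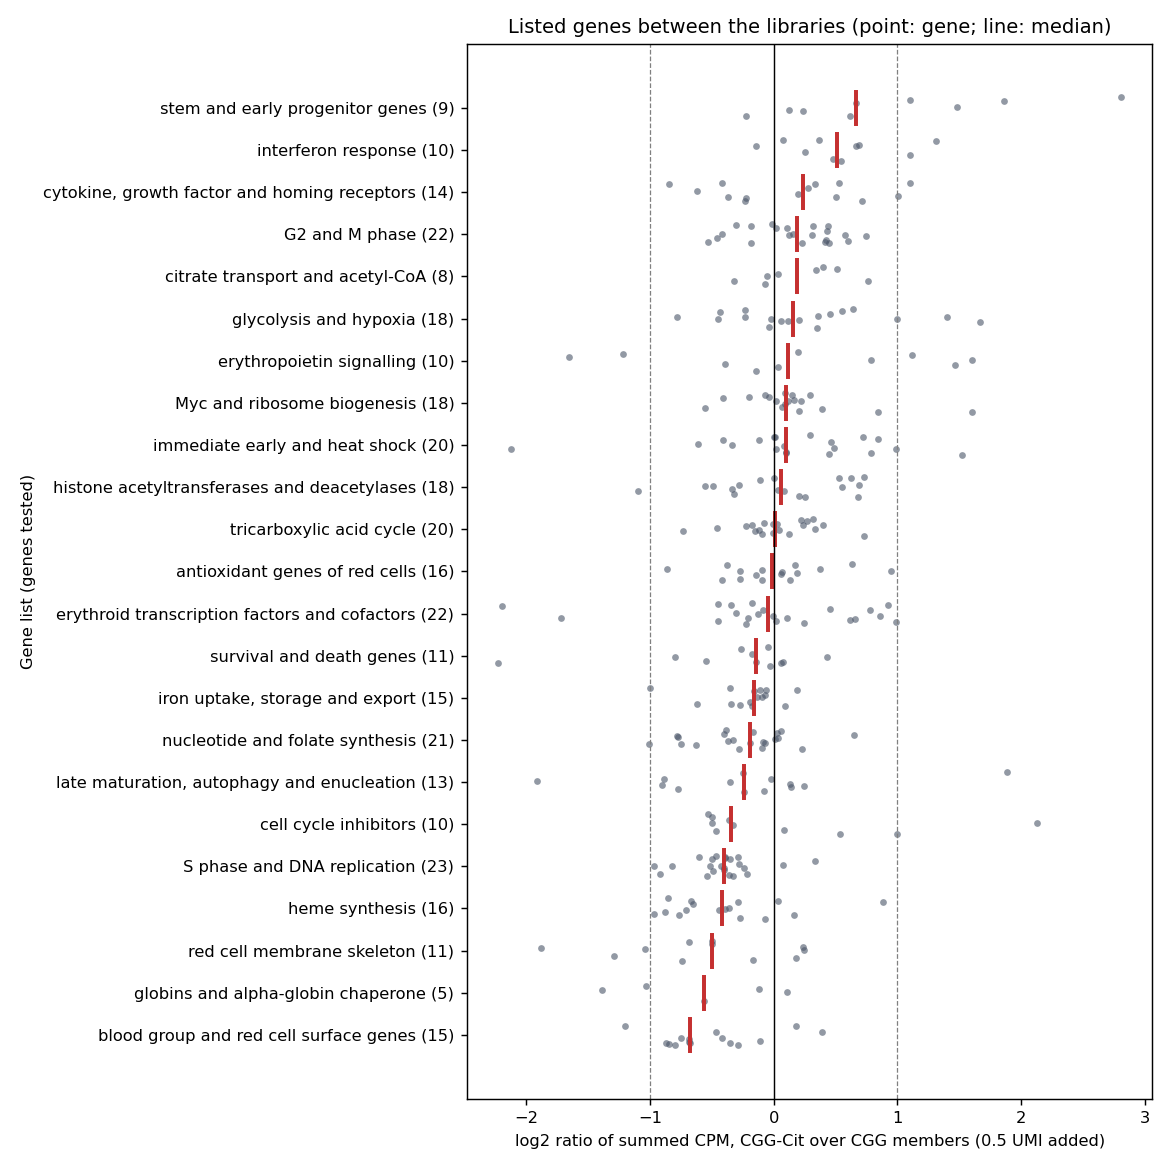
Log2 ratio of summed CPM in the early barcodes, CGG-Cit over CGG (0.5 UMI added), for each tested gene (points) of the gene lists (rows, with the number tested), with red lines at the list medians and dashed lines at 2-fold. Early progenitor genes have a median of 0.67, while surface genes have -0.68, heme synthesis -0.42 and S phase -0.40.

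Interferon response genes were higher in CGG-Cit for 9 of 10, with a median log2 ratio of 0.51, or 0.89 within the high Car2 range. Without barcodes that held markers of other lineages, which left 5 in CGG, the median was -0.49. Those left out in CGG mostly held only Col1a1 past its limit. Every CGG barcode held Col1a1, at a median of 4 UMIs, and no CGG-Cit barcode more than 1. Bst2, the antiviral tether protein, had 64.6 and 162 CPM (2.50-fold, 1.82 to 3.53), and Isg15, a ubiquitin-like protein, 18.9 and 42.1 CPM (2.22-fold, 1.23 to 4.41). B lineage barcodes of CGG held 320 CPM of Bst2 and 193 CPM of Isg15, above the levels in the early erythroid ones. Genes of citrate transport and acetyl-CoA were listed as well. Slc13a5, Slc13a3 and Slc13a2, the citrate and dicarboxylate carriers of the cell membrane, had no UMI in either library. Slc25a1, the mitochondrial citrate carrier, had 42.6 and 57.0 CPM (1.34-fold, 0.892 to 2.09), and Acly, which splits citrate, 66.2 and 53.4 CPM (0.806, 0.573 to 1.16), so both intervals spanned 1. Of 8 such genes 5 were higher and 3 lower, none past 2-fold. The tricarboxylic acid cycle had 10 genes higher and 10 lower, with a median of 0.01, and Suclg1, a subunit of succinate-CoA ligase, at 107 and 179 CPM (1.67-fold, 1.30 to 2.18).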

How the data were processed

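The authors deposited raw counts, as UMIs per gene and barcode, for 2 droplet 3′ libraries of cells from skull defects; all values were whole numbers over 27998 genes. Per the file headers the matrices were made with software version 4.0.0, whereas Cell Ranger 3.0 and mm10 are named per the submitters' processing notes; the labels give the kit as version 2 or 3 without saying which. Kept barcodes had 200 or more detected genes and no more than 20% mitochondrial UMIs, and doublets were not removed (Scrublet in Scanpy 1.11.5 was an alternative). The alternative without markers of other lineages kept barcodes with under 30 S100a8 UMIs and under 3 each of Cd79a, Cd3e, C1qa and Col1a1. Within each library the UMIs of a class were added up and given as CPM, with exact Poisson intervals for levels, conditional binomial for ratios, Clopper-Pearson for shares and Newcombe for differences (Python 3.11.15, SciPy 1.17.1, statsmodels 0.14.6). Log2 ratios had 0.5 UMI added. A gene entered a comparison with 20 or more UMIs and a mean of 10 CPM or more, and a call was a ratio past 2-fold, in both libraries where classes were compared. Lists were matched by symbol, and 531 of 534 entries were found, 1 of them through its Ensembl ID under another symbol. Named genes were the 12 highest and 12 lowest by the interval bound nearest 1, with at least 50 CPM and 30 UMIs and at least 2 times the B lineage level in the higher group, plus examples of the lists; some genes are not reported here. The code was tested on simulated data. The members, lists and rule were chosen with earlier results of these data known. The Car2 ranges, the Gata2 limit and the alternatives without S100a8-rich members or within the high Car2 range were chosen after seeing the data. Barcodes are not replicates, and with 1 library per hydrogel no p-value was possible. The precision follows from 634268 UMIs in the 16 CGG and 3279045 in the 72 CGG-Cit members.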

Additional observations from a re-analysis of the deposited data

How the results depend on the processing

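The share of early erythroid barcodes was larger in CGG-Cit under every alternative run, at 2.61 times (thinned to 5000 UMIs) to 8.37 times (without Scrublet doublets, 9 and 68 barcodes). The difference of 0.553 percentage points was 1.46 without barcodes that held markers of other lineages (5 and 53 left). In CGG that alternative left out early barcodes mostly for Col1a1 alone, which every early CGG barcode held. Between the libraries, 283 genes were past 2-fold higher and 182 lower. These counts were 597 and 865 without barcodes holding other lineage markers, 1256 and 1462 with no minimum level, and 40 and 21 at minimums of 50 CPM and 50 UMIs. Thinning gave 176 higher, and leaving out Scrublet doublets 363 lower. Against later erythroblasts, 3675 genes were higher and 313 lower. These were 984 and 977 on CPM without globin UMIs (globin genes themselves counted), 733 and 1126 with median-of-ratios scaling, 2378 and 169 after thinning, 5894 and 738 with no minimum, 1323 and 130 at those minimums, and 159 lower without other lineage markers. Thinning reversed the log2 ratios between libraries of Npepl1 (-0.64), Cep76 (0.51) and the globin list's median (0.35). Thinning compared another set of barcodes, with 18 in CGG where 16 met the rule at full depth. In other alternatives, fewer barcodes or another scale enter by construction. Other causes were not tested. Over all alternatives, 12 of 336 list medians moved past their margin and 1 reversed. Of 336 values of named genes between the libraries 39 moved and 2 reversed, 17 of the 39 without barcodes holding other lineage markers (of 24 there), and of 624 values against later erythroblasts 172 moved. No paired analysis was possible because each hydrogel has 1 library, and for the same reason none could be left out. Depth limits the CGG values, where 14 Myc UMIs carry its ratio.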

Other observations

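Survival genes were counted in the same way. Of 11 such genes tested between the libraries, 3 were higher and 8 lower in CGG-Cit, with a median log2 ratio of -0.14. Of 16 antioxidant genes of red cells, 8 were higher and 8 lower, with a median of -0.01, and of 18 histone acetyltransferase and deacetylase genes 11 were higher and 7 lower, with a median of 0.06. Against later erythroblasts, on CPM without globin UMIs, 3 of 16 tested genes of the histone enzyme list were at least 2-fold higher and 1 lower, where 15.5% and 15.3% of all genes were. Gab1, an adaptor of erythropoietin signalling, stood at 18.9 and 6.10 CPM in CGG and CGG-Cit (ratio 0.322, 95% interval 0.150 to 0.723), and Pim3, a survival kinase, at 6.31 and 21.4 CPM (3.38, 1.26 to 12.8). Nfia, a factor that favors the red cell over the granulocyte fate, had 94.7, 144 and 164 CPM in the low, middle and high Car2 ranges of CGG-Cit and 3.54 CPM in its Mpo-rich progenitors. Fam132a, a secreted protein, had 156, 710 and 908 CPM in these ranges. Angpt1, the angiopoietin ligand, had 36.4, 2.49 and 2.92 CPM.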
